A study of Homo sapiens with 6 samples.

Results

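The 10 genes described here encode proteins of the intercalated disc, the junction that joins heart muscle cells end to end. They were taken by symbol from the 38557 genes counted in each library, and comprise the connexins GJA1, GJA5 and GJC1, the adherens junction genes CDH2 and CTNNA3, and the desmosome genes DSP, DSG2, DSC2, PKP2 and JUP. All 10 were counted in every library and passed the filter on low counts, which left 16107 genes for testing. RNA was sequenced from cardiomyocytes made from hiPSC WTC11, a widely used line of human induced pluripotent stem cells, here labelled WT. The cells of 3 biological replicates had been kept in RPMI plus B27, a serum-free supplement, and those of the other 3 in DMEM plus fatty acids, and both media used replicate numbers 1 to 3. Nothing in the labels ties a replicate number to a shared differentiation or day, so p-values measure the spread between these libraries only. The comparison concerns a single cell line, and the composition of the media and the time the cells spent in them are not given in the sources used here.

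The intercalated disc combines 3 kinds of contact. Gap junctions are channels built from connexins that pass ions, and with them the electrical impulse, from cell to cell. Adherens junctions tie the actin of neighbouring sarcomeres together through N-cadherin and the catenins, and desmosomes anchor the desmin filaments through desmosomal cadherins, plakophilin, plakoglobin and desmoplakin. In the heart these components are intermixed, and inherited defects of the desmosome genes are a known cause of arrhythmogenic cardiomyopathy.

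The libraries held 23232324 to 31035389 gene counts, and the members were counted from 191 times (GJA5 in RPMI plus B27 replicate 2) to 37423 times (CDH2 in DMEM plus fatty acids replicate 2). Levels are CPM, gene counts divided by library size, scaled by TMM, a correction for differences in library composition. Cardiomyocyte markers summed to 31392 to 38289 CPM in RPMI plus B27 and 24688 to 34955 CPM in DMEM plus fatty acids (12 markers, all tested), with the lowest sum in DMEM plus fatty acids replicate 3. Of these markers 4 were higher and 8 lower. Without the replicate number as a block 0 of 12 were called, and 3 had an unadjusted p under 0.05 (against 17.7% of all tested genes, edgeR). With the block 2 of 12 were called. The called genes, MYH7 (9638 ± 3231 to 4000.5 ± 1862 CPM) and ACTN2 (2218 ± 473.7 to 1109 ± 379.5 CPM), fell. MYH6 stood at 4758 ± 1119 and 8653 ± 1931 CPM without overlap, as did 12.8% of all tested genes in that direction. It did not pass (adjusted p 0.166 without and 0.0797 with the block, edgeR). Fibroblast and stromal markers were at 5042 to 9271 CPM against 939.1 to 2206 CPM, and 7 of 12 fell without the block and 9 of 12 with it. Over all genes 1.36% were called without the block and 4.78% with it. The epicardial and epithelial markers were at 2010 to 2431 against 901.8 to 1107 CPM, with 8 of 9 tested lower and EPCAM higher. Most of this sum was KRT8 (1065 to 1480 against 538.4 to 661.7 CPM) and KRT18 (615.8 to 751.6 against 256.7 to 404.1 CPM), both keratin genes. Of the epicardial markers, WT1, TCF21, UPK3B, ALDH1A2 and MSLN were at or under 1.09 CPM in every library. TBX18 was higher, at 3.11 to 7.72 against 0.803 to 1.36 CPM, as was BNC1, at 2.47 to 4.66 against 0.689 to 2.55 CPM. Smooth muscle markers were at 1572 to 1979 against 315.9 to 1147 CPM. Endothelial markers summed to 30.1 to 239.8 against 115.3 to 463.7 CPM, nearly all of it KDR (27.5 to 238.9 against 114.5 to 463.2 CPM), which was called higher with the block (adjusted p 0.0245, edgeR) and not without it (0.434). TEK and TIE1, the other 2 of 3 tested endothelial markers, were lower in DMEM plus fatty acids and at or under 1.13 CPM in every library. Their log2 fold changes were -2.13 ± 0.51 and -0.97 ± 0.53 (SE), and neither passed in either fit (adjusted p 0.0960 and 0.389 without the block, edgeR). PECAM1, CDH5 and VWF stayed at or under 0.414 CPM. Pluripotency markers summed to 16.8 to 57.9 against 24.5 to 61.7 CPM, nearly all of it TDGF1 (14.6 to 57.1 against 24.2 to 61.4 CPM), with NANOG at or under 0.0377 CPM in every library.

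GJC1 was the only member called in any fit, so part of the coding sequence of its first extracellular loop is shown as an example of the connexin family. This loop takes part in the contact between the channels of neighbouring cells, and the codons of its 3 cysteines are in capitals. The stretch is 60 bases of coding exon on the sense strand, at chr17:44805614-44805673 (minus strand), from GENCODE release 29 on GRCh38, the build that the submitters' processing notes call hg38.
GJC1: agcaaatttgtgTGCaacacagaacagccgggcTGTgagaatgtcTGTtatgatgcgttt
Over the whole GJA1 transcript, 195 of 3103 stretches of 50 bases (6.28%) also occurred in GJA1P1, a processed pseudogene, against 0 of 3134 for GJA5 in any other gene. PKP2 shared 302 of 4253 such stretches (7.10%) with another processed pseudogene. GJC1 shared 95 of 7591 (1.25%), spread over 156 other annotated genes. As not uniquely aligned, the counting set aside 3.76% to 4.10% of the reads of a library in RPMI plus B27. In DMEM plus fatty acids it was 3.05% to 3.36%, without overlap. How many of these reads came from GJA1, GJC1 or PKP2 was not tested.

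Per kilobase of annotated exon, CDH2 was the most abundant member in both media, and DSC2, GJA5 and GJC1 were the 3 least abundant. In RPMI plus B27, CDH2 was at 203.3 ± 30.1 CPM per kb (SD, n = 3), followed by PKP2 at 98.9 ± 11.1, JUP at 84.4 ± 14.6, DSP at 62.5 ± 12.03, DSG2 at 33.9 ± 2.45, GJA1 at 31.8 ± 10.3, CTNNA3 at 14.5 ± 2.99, GJC1 at 8.36 ± 1.14, GJA5 at 6.60 ± 4.15 and DSC2 at 5.38 ± 0.592. The ranges of neighbours in this order did not overlap between CDH2 and PKP2, DSP and DSG2, GJA1 and CTNNA3, and CTNNA3 and GJC1. In DMEM plus fatty acids CDH2 again led at 210.0 ± 45.1 CPM per kb and GJC1 was last at 5.62 ± 0.345, and GJA1 stood at 17.0 ± 9.32. There the ranges of neighbours overlapped between JUP and PKP2, between DSP and DSG2, and all along the order GJA1, CTNNA3, DSC2, GJA5 and GJC1. These levels use the exons of GENCODE release 29, which need not be the annotation the authors counted with.

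Between media no member passed an adjusted p of 0.05 in the test without regard to replicate number (0 of 10, edgeR quasi-likelihood test, Benjamini-Hochberg over all genes), where 1.36% of all tested genes passed, 0.292% as higher and 1.07% as lower in DMEM plus fatty acids. At an unadjusted p under 0.05 there was 1 member, GJC1, against 17.7% of all genes (7.70% higher and 9.98% lower). When replicate number was added to the model as a block, GJC1 passed as lower (1 of 10, against 4.78% of all genes in either direction and 3.42% lower). The DESeq2 Wald test also called GJC1 alone (7.52% of all genes, 5.13% lower). Before adjustment the blocked fit had 3 members under 0.05, GJA1, GJC1 and CTNNA3, all lower, against 24.0% of all genes and 13.2% lower. The median log2 fold change of the 10 members, taken for DMEM plus fatty acids relative to RPMI plus B27, was -0.09, with 4 higher and 6 lower, beside a median of 0.01 over all genes. With all 6 libraries GJA1, GJC1 and CTNNA3 had the largest fitted differences of the 10, though without DMEM plus fatty acids replicate 3 CTNNA3 was at -0.27 and DSC2 at 0.32. With all 6, the 5 desmosome genes lay between -0.15 and 0.27. In these bulk libraries, fewer cells of a type and less RNA per cell cannot be told apart.

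**Figure D1:**
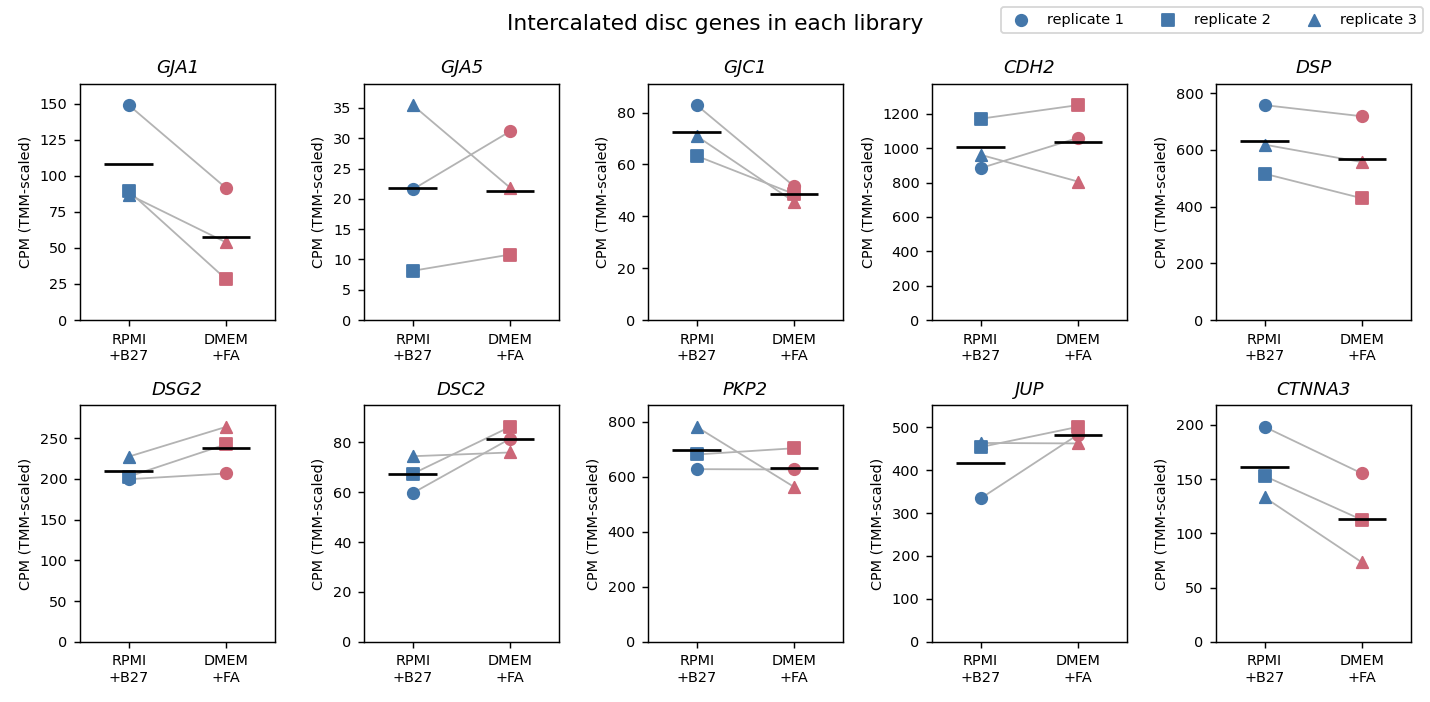
Level of each of the 10 genes in each library (y axis, TMM-scaled CPM from 0) for the media RPMI plus B27 (RPMI +B27) and DMEM plus fatty acids (DMEM +FA). Symbols are replicate numbers, grey lines join libraries of the same number and black bars are means of 3. GJC1 is lower and DSC2 higher in DMEM plus fatty acids without overlap, a separation that 25.6% of all tested genes also have. GJA1 is lower in DMEM plus fatty acids along each of the 3 lines, as are 24.0% of all tested genes.

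Gene positions below are those of GENCODE release 29 on GRCh38. GJC1 (chr17:44798448-44830816, minus strand) encodes connexin 45, the connexin of the early heart tube and of the conduction system's nodes. It stood at 82.9, 63.3 and 71.0 CPM in RPMI plus B27 (replicates 1 to 3) and at 51.6, 48.6 and 45.6 CPM in DMEM plus fatty acids. Every library of RPMI plus B27 was above every library of DMEM plus fatty acids, a separation that 25.6% of all tested genes also had (12.8% higher and 12.8% lower). The level in DMEM plus fatty acids was 0.672 times that in RPMI plus B27, a log2 fold change of -0.57 ± 0.13 (SE, adjusted p 0.0910, edgeR quasi-likelihood test, lower in 3 of 3 pairs of the same number). With the replicate number as a block the change was -0.57 ± 0.11 and was called (adjusted p 0.0443), and with DESeq2 the adjusted p was 0.0110. Over its 12 alternatives the log2 fold change ran from -0.66 to -0.47 and the adjusted p from 0.0110 to 0.259. No fit without the block that left out 1 library called it.

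GJA1 (chr6:121435577-121449727, plus strand) encodes connexin 43, the main connexin of working ventricular muscle, which fibroblasts and epicardial cells also express. Its levels were 149.0, 89.3 and 87.0 CPM in RPMI plus B27 and 91.5, 28.3 and 53.8 CPM in DMEM plus fatty acids. Replicate 1 was highest in both media, and its library in DMEM plus fatty acids lay above replicates 2 and 3 of RPMI plus B27, so the groups overlapped. Within pairs of the same number the level in DMEM plus fatty acids was 0.614, 0.317 and 0.619 times that in RPMI plus B27. The log2 fold change of -0.91 ± 0.41 had a 95% interval of -1.87 to 0.06 and did not pass (adjusted p 0.309, edgeR), and with the block it was -1.01 ± 0.21 and did not pass either (adjusted p 0.0531). Without DMEM plus fatty acids replicate 2 it was -0.58, and without DMEM plus fatty acids replicate 1 it was -1.41. Fibroblast and stromal markers moved in the same direction, with 11 of 12 lower and a median log2 fold change of -2.84, and their sum was likewise highest in RPMI plus B27 replicate 1 (9271 CPM). In DMEM plus fatty acids, however, their sum was lowest in replicate 1, where GJA1 was highest (939.1 CPM, against 2206 and 2175 CPM in replicates 2 and 3). Their part in the GJA1 values was not tested.

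GJA5 (chr1:147756199-147773362, minus strand) encodes connexin 40, found in atrial muscle and the fast conduction system. It had 21.6, 8.13 and 35.5 CPM in RPMI plus B27 and 31.1, 10.8 and 21.8 CPM in DMEM plus fatty acids. Replicate 2 was lowest in both media, and the groups overlapped throughout. No difference was resolved, with a log2 fold change of -0.03 ± 0.55 and a 95% interval of -1.32 to 1.25 (adjusted p 0.981, edgeR). The sign depended on the libraries and on the scaling, since it was 0.076 under scaling by total counts and 0.073 with the block.

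As a share of the counts of these 3 connexins, GJA1 made up 58.8%, 55.6% and 45.0% in RPMI plus B27 and 52.5%, 32.3% and 44.4% in DMEM plus fatty acids. The share was lower in 3 of 3 pairs, with differences of -6.28, -23.3 and -0.599 percentage points, but the groups overlapped and the mean difference of -10.1 points was -4.67 without DMEM plus fatty acids replicate 2 and -14.8 without its replicate 1 (mean 53.1 ± 7.23% against 43.0 ± 10.2%, exact two-sided permutation p 0.2, adjusted over 5 shares 0.5). With 3 against 3 libraries this test cannot give a p under 0.1. Since transcripts differ in length, only the change of such a share can be read, not its size.

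Of the adherens junction genes, CDH2 (chr18:27950966-28177446, minus strand), which encodes N-cadherin, the classical cadherin of heart muscle, ranked 70 of 16107 tested genes by mean CPM. It was at 884.4, 1172 and 962.1 CPM in RPMI plus B27 and at 1061, 1251 and 806.6 CPM in DMEM plus fatty acids. Replicate 2 was highest in both media, and the level in DMEM plus fatty acids was higher in pairs 1 and 2 and lower in pair 3 (1.20, 1.07 and 0.838 times). The log2 fold change was 0.05 ± 0.20 with a 95% interval of -0.43 to 0.52 (adjusted p 0.928, edgeR).

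CTNNA3 (chr10:65912518-67696169, minus strand) encodes alpha-T-catenin, a catenin largely restricted to heart and testis that links the cadherin complex to actin and binds plakophilin 2. Its levels were 198.1, 152.7 and 133.1 CPM in RPMI plus B27 and 155.2, 112.4 and 73.2 CPM in DMEM plus fatty acids. It was lower in DMEM plus fatty acids in each pair, at 0.783, 0.736 and 0.550 times, although the groups overlapped because replicate 1 was highest and replicate 3 lowest in both media. The log2 fold change was -0.51 ± 0.28 (adjusted p 0.390, edgeR) and with the block -0.55 ± 0.13 (adjusted p 0.0736), and neither passed. Without the block it was -0.27 when DMEM plus fatty acids replicate 3 was left out, -0.80 without replicate 1 of that medium and -0.33 without RPMI plus B27 replicate 1. The lowest library, DMEM plus fatty acids replicate 3, also had the lowest cardiomyocyte marker sum (24688 CPM), whose part was not tested. CTNNA1, which encodes the widely expressed alpha-E-catenin, had -0.14 ± 0.21 (adjusted p 0.773). CTNNA3 made up 23.6%, 20.5% and 19.7% of the counts of both alpha-catenins in RPMI plus B27 and 18.3%, 17.7% and 15.7% in DMEM plus fatty acids, with no overlap between media. The difference of -4.06 percentage points had the smallest p that the design allows (exact two-sided permutation p 0.1, adjusted over 5 shares 0.5). CTNNA3 overlaps other annotated genes, among them LRRTM3 on the opposite strand, antisense genes also overlap GJA5, CDH2, DSG2 and DSC2, and PPL overlaps SEC14L5. The strand setting of the counting is not given in the sources used here, so reads of such partners may not have been kept apart.

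**Figure D2:**
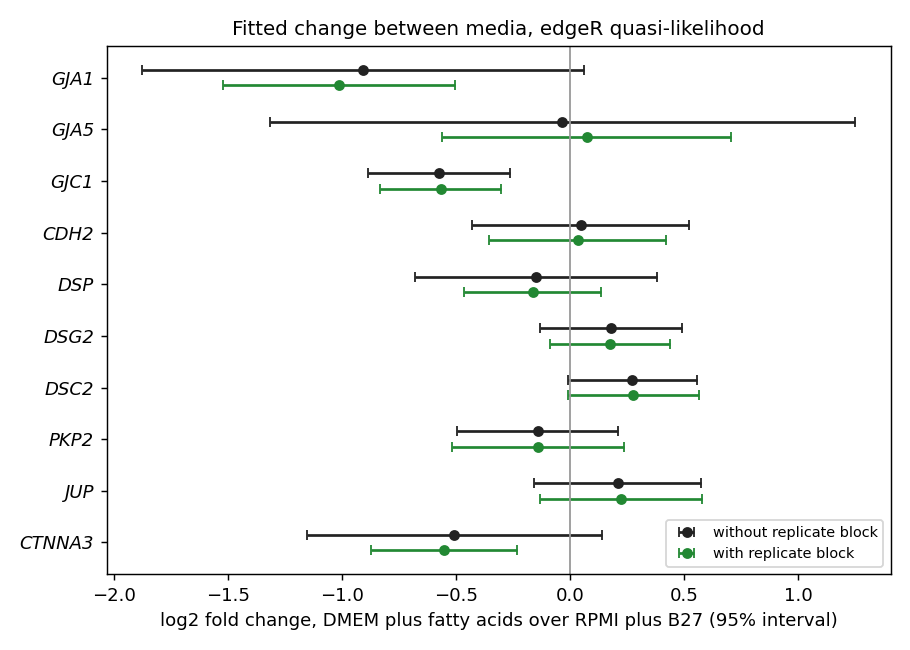
Fitted log2 fold change (x axis) of each gene, DMEM plus fatty acids relative to RPMI plus B27, with 95% intervals, in the test without (black) and with (green) the replicate number as a block. The intervals of GJC1 exclude 0 in both fits, and those of GJA1 (-1.52 to -0.50) and CTNNA3 (-0.87 to -0.23) do so with the block, before adjustment over all genes.

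Among the desmosome members no difference passed in either fit. DSP (chr6:7541575-7586717, plus strand) encodes desmoplakin, which connects the desmosomal plaque to desmin filaments. It was at 757.7, 515.8 and 618.3 CPM in RPMI plus B27 and at 718.4, 429.4 and 556.8 CPM in DMEM plus fatty acids. Replicate 1 was highest and replicate 2 lowest in both media, and within pairs the level in DMEM plus fatty acids was 0.948, 0.833 and 0.901 times that in RPMI plus B27. The log2 fold change was -0.15 ± 0.23 with a 95% interval of -0.68 to 0.38 (adjusted p 0.774, edgeR).

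The desmosomal cadherins DSG2 (chr18:31498043-31549008, plus strand) and DSC2 (chr18:31058840-31102522, minus strand), which encode desmoglein 2 and desmocollin 2, the isoforms of heart muscle, were both higher in DMEM plus fatty acids in each pair. DSC2 had 59.7, 67.4 and 74.5 CPM in RPMI plus B27 and 81.5, 86.2 and 76.0 CPM in DMEM plus fatty acids. These groups did not overlap, as for 25.6% of all tested genes (12.8% higher), though the gap between 74.5 and 76.0 CPM was small. The log2 fold change of 0.27 ± 0.12 did not pass (adjusted p 0.300, edgeR, and 0.220 with the block). DSG2 had 199.7, 202.9 and 227.5 CPM against 206.8, 242.6 and 264.0 CPM, with overlap, and a log2 fold change of 0.18 ± 0.13 (adjusted p 0.529, edgeR). Replicate 1 was lowest and replicate 3 highest for DSG2 in both media. The share of DSC2 in the counts of both cadherins was 24.2 ± 1.05% for RPMI plus B27, against 25.6 ± 3.01% for DMEM plus fatty acids (exact two-sided permutation p 0.5, adjusted over 5 shares 0.8, n = 3 each). DSC2 shared 31 stretches of 50 bases with its neighbour gene DSC3.

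PKP2 (chr12:32790745-32896840, minus strand) encodes plakophilin 2, an armadillo protein of the desmosomal plaque. It stood at 627.3, 680.6 and 780.9 CPM in RPMI plus B27 and at 626.2, 703.3 and 562.9 CPM in DMEM plus fatty acids. Replicates 1 and 2 were nearly level between media, at 0.998 and 1.03 times, and replicate 3 was at 0.721 times. The log2 fold change was -0.14 ± 0.15 with a 95% interval of -0.49 to 0.21 (adjusted p 0.665, edgeR).

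JUP (chr17:41754604-41786931, minus strand) encodes plakoglobin, the catenin that serves both desmosomes and adherens junctions. Its levels were 334.1, 453.7 and 463.3 CPM in RPMI plus B27 and 482.7, 500.7 and 462.1 CPM in DMEM plus fatty acids. RPMI plus B27 replicate 1 lay well below the other 5 libraries, which ran from 453.7 to 500.7 CPM. The log2 fold change was 0.21 ± 0.16 with a 95% interval of -0.16 to 0.58 (adjusted p 0.534, edgeR). As a share of the counts of JUP and CTNNB1, the beta-catenin gene, JUP was at 42.7 ± 2.17% and 42.4 ± 1.40% (exact two-sided permutation p 0.8, adjusted over 5 shares 0.8, n = 3 each). CDH2 as a share of the counts of CDH2, DSG2 and DSC2 was at 78.2 ± 2.69% and 76.1 ± 4.95% (exact two-sided permutation p 0.7, adjusted over 5 shares 0.8, n = 3 each).

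Replicate number accounted for more of the spread than the medium in 5 of the 10 members (GJA5, CDH2, DSP, DSG2 and CTNNA3) and for less in the other 5. Of the sum of squares of log2 CPM over the 6 libraries, replicate number (with 2 degrees of freedom against 1 for the medium) took 89.5% for DSP, 86.8% for GJA5 and 75.8% for CDH2, where the medium took 8.59%, 0.271% and 0.588%. GJC1 and DSC2 were the reverse, with 84.0% and 63.0% for the medium and 11.4% and 10.5% for replicate number. GJA1 was split nearly evenly, at 46.1% for the medium and 44.8% for replicate number. The median over the 10 members was 50.4% for replicate number and 34.3% for the medium, beside 39.9% and 25.5% over all tested genes. DSP, DSG2 and CTNNA3 kept the same order of replicate numbers in both media (3 of 10 members, 27.7% of all tested genes). Of the members, 6 differed in the same direction in all 3 pairs, 4 lower (GJA1, GJC1, DSP and CTNNA3) and 2 higher (DSG2 and DSC2), where 49.8% of all tested genes had 1 direction in all pairs (25.8% higher and 24.0% lower).

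**Figure D3:**
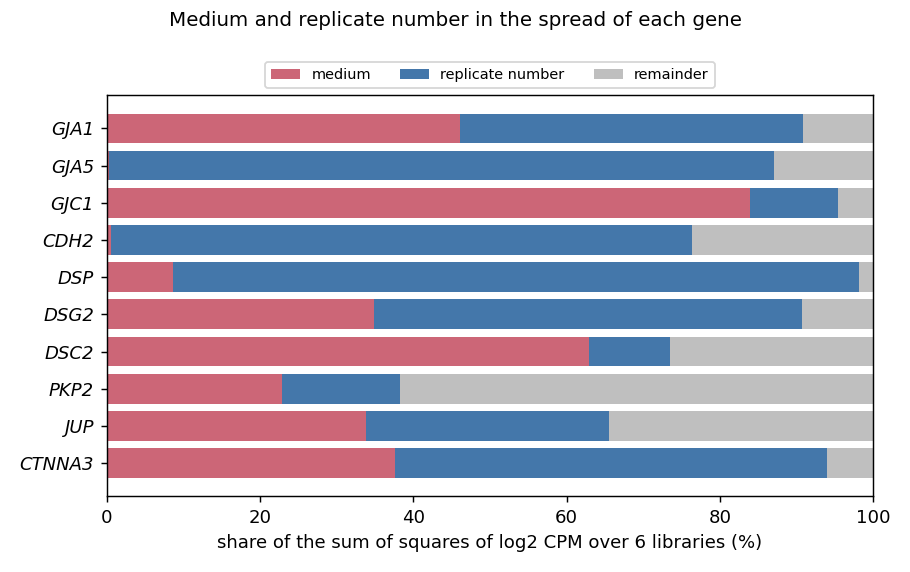
Share of the sum of squares of log2 CPM over the 6 libraries (x axis, %) that goes with the medium (red), with the replicate number (blue) and with neither (grey), for each gene. The bar of GJC1 is mostly red (84.0%), and those of DSP (89.5%), GJA5 (86.8%) and CDH2 (75.8%) are mostly blue.

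The gene whose level over the 6 libraries was most like that of GJC1, the member with the smallest p, was WASF3 (Pearson's r 0.999 of log2 CPM, n = 6 libraries), followed by AIF1L (0.996) and ATP2B4 (0.995). These are the highest of 16107 genes, share libraries and medium with GJC1, and describe likeness only. WASF3 went from 74.2 ± 13.7 to 42.6 ± 4.27 CPM (SD, n = 3 each).

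The other genes of the junctions were taken from lists that were chosen with earlier results of these data known. Of 10 other desmosome genes only DSC3, PPL and PERP passed the filter on low counts, and all 3 had lower fitted levels in DMEM plus fatty acids. PPL, which encodes periplakin, a plakin of epithelial junctions, was at 32.3 ± 6.15 CPM in RPMI plus B27 and 18.1 ± 0.508 CPM in DMEM plus fatty acids, with a log2 fold change of -0.84 ± 0.17 that passed with the block (adjusted p 0.0455) and not without it (0.0657, edgeR). DSC3, a desmocollin of stratified epithelia, was at 15.03 ± 1.58 and 6.72 ± 3.94 CPM (-1.15 ± 0.39, adjusted p 0.189, edgeR). PERP was at 130.9 ± 2.58 and 127.6 ± 8.01 CPM (-0.04 ± 0.10, adjusted p 0.882). Epicardial and epithelial markers moved in the same direction as PPL and DSC3, with 8 of 9 tested lower and a median of -1.12, and their part was not tested.

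Of 17 other adherens junction genes 16 were tested, with 5 higher, 11 lower and a median log2 fold change of -0.25. None passed without the block (0 of 16, against 1.36% of all tested genes), and 3 had an unadjusted p under 0.05 (against 17.7%, edgeR). CDH11 alone passed with the block (1 of 16, against 4.78% of all tested genes). CDH11 encodes cadherin 11, a cadherin of mesenchymal cells, and went from 227.5 ± 38.8 to 138.9 ± 36.8 CPM (-0.71 ± 0.22, adjusted p 0.162 without and 0.0281 with the block, edgeR). VCL, the vinculin gene, had -0.53 ± 0.22 and ARVCF, which encodes a relative of p120-catenin, -0.51 ± 0.21, with adjusted p values of 0.265 and 0.268. VCL is also on the list of scaffold, channel and regulator genes below and is counted in both lists. CDH15, the M-cadherin gene, was under 2 CPM in every library (0.55 ± 0.31, adjusted p 0.405). CDH1, the epithelial E-cadherin gene, was singled out after its values were seen and followed replicate number, with 14.8 and 5.84 CPM in replicate 3 of the media and 0.215 to 1.53 CPM in the other 4 libraries.

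Scaffold, channel and regulator genes of the disc gave 0 of 24 calls in either fit, where 1.36% of all tested genes were called without and 4.78% with the block. Of the 24, 9 were higher and 15 lower, with a median of -0.20. Libraries of the media did not overlap for 3 higher and 6 lower genes, against 12.8% of all tested genes in each direction. Without the block 9 had an unadjusted p under 0.05 (against 17.7% of all tested genes, edgeR), and with it 12 (against 24.0%). Those with the smallest p without the block were FERMT2 (kindlin 2, a partner of integrins and catenins, -0.59 ± 0.15, adjusted p 0.105), ANK3 (ankyrin G, an anchor of sodium channels, 0.52 ± 0.13, 0.114), CAV3 (caveolin 3, -2.35 ± 0.65, 0.132, at under 2 CPM in every library) and POPDC3 (a Popeye domain protein, 0.42 ± 0.13, 0.161). Of 12 tested transcription factors known to act on connexin genes or in the nodes, 9 were higher and 3 lower, with a median of 0.20. No factor passed without the block (0 of 12, 2 at an unadjusted p under 0.05, against 1.36% and 17.7% of all tested genes). With the block TBX18 was called lower and ID2 higher, where 4.78% of all tested genes were called. TBX18, a factor of the sinus node and the epicardium that is also on the epicardial marker list, went from 4.98 ± 2.43 to 1.095 ± 0.281 CPM (-2.18 ± 0.42, adjusted p 0.0605 without and 0.0271 with the block, edgeR). ID2, which takes part in forming the conduction system, went from 75.0 ± 20.9 to 123.5 ± 25.5 CPM (0.72 ± 0.24, adjusted p 0.182 and 0.0455, edgeR). TBX3, a repressor of GJA1 and GJA5 in the nodes, had 0.58 ± 0.30 (adjusted p 0.356), and IRX3 0.52 ± 0.24 (0.317).

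**Figure D4:**
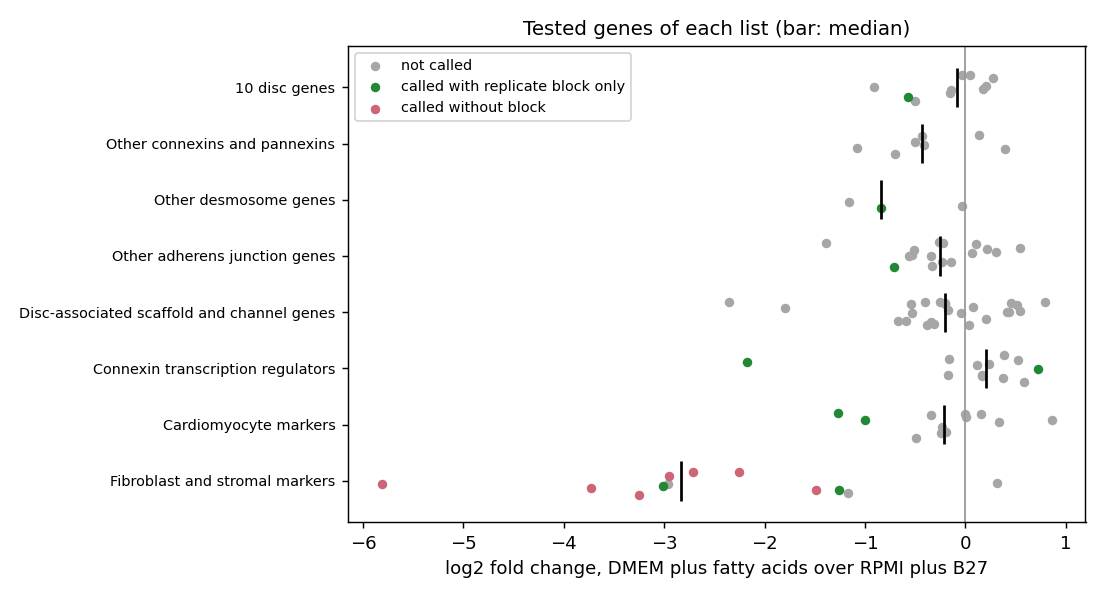
Log2 fold change (x axis), DMEM plus fatty acids relative to RPMI plus B27, of each tested gene of the 10 disc genes, the related lists and 2 marker lists; bars are medians and colours give the call. The 10 disc genes lie between -0.91 and 0.27, while fibroblast and stromal markers have a median of -2.84.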

How the data were processed

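Per the submitters' processing notes the authors used STAR and HTSeq on hg38. Versions, annotation and strand setting are not given in the sources used here. Each deposited file gives 1 library's raw counts by gene symbol. Genes held 84.4% to 87.2% of each file's total, and the 5 summary rows that name no gene stayed out of library sizes and tests. Per the labels' protocols the kit was one for stranded mRNA.

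Counts were filtered with filterByExpr (minimum count 10, total 15), scaled by TMM and tested in edgeR 4.0.16 (R 4.3.3) with the quasi-likelihood test over all 6 libraries, for DMEM plus fatty acids relative to RPMI plus B27, with Benjamini-Hochberg adjustment over 16107 genes and a threshold of 0.05. Each standard error was derived from the gene's F statistic and fold change. The fit was tested on simulated counts. Alternatives were the replicate block, DESeq2 1.42.0, other scalings and filters, and leaving out each library. Deviations from the medium means correlated at 0.313, 0.428 and 0.365 across genes for libraries with the same number and at -0.242 to -0.136 for others. The deviations of a gene sum to 0 within a medium, so positive same-number values make the others negative on average. Those negative values therefore add no support. The numbers were taken as pairing the libraries on the same-number values of this check alone. No 2 libraries agreed within sampling noise (smallest chi-square per degree of freedom 31.5 over tested genes, where 1 is expected). Lengths, coordinates and shared stretches of 50 bases come from GENCODE release 29, in which all 10 symbols matched.

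The members, the gene lists and the rule for named genes were chosen with earlier results of these data known. That rule takes the 10 members, from each related list the called genes and up to 4 with the smallest p, from each marker list up to 3 with the smallest p and defining markers at or near 0, and the 3 genes most like the member with the smallest p. GJA1P1, CTNNA1, CTNNB1, CDH1, EPCAM and BNC1 are named beside it. A gene that the rule names is not reported here.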

Additional observations from a re-analysis of the deposited data

How the results depend on the processing

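The number of called genes, 219 of 16107, rose to 770 with the replicate number as a block, 1212 with DESeq2 and 539 without a filter on low counts, and fell to 119 among genes with 10 counts in every library. It ran from 3 to 131 when 1 library was left out. Scaling by total counts moved the median of all genes to 0.12 and the share of lower calls from 78.5% to 63.4%, and no member's call changed with it. The members called went from 0 to 1 with the block and with DESeq2 (GJC1 in both), and the block changed no other member's call. Of 120 member values under alternatives, 110 kept direction and call. GJA5 changed sign to 0.073 with the block, 0.076 under total counts, 0.52 without RPMI plus B27 replicate 3 and 0.29 without DMEM plus fatty acids replicate 2. Without RPMI plus B27 replicate 1 and without DMEM plus fatty acids replicate 2, CDH2 changed sign to -0.04 and -0.11, and DSP to 0.0018 and 0.018. Leaving out 1 library gave ranges of -0.43 to 0.52 for GJA5, -0.11 to 0.20 for CDH2 and -0.36 to 0.018 for DSP. The cause was not tested. When 1 library was left out, the share differences ran from -14.8 to -4.67 points for GJA1, 0.083 to 3.04 for DSC2, -4.85 to -2.89 for CTNNA3, -1.51 to 0.562 for JUP and -3.74 to 0.679 for CDH2, so those of JUP and CDH2 changed sign. With 3 libraries a medium, the 95% interval of GJA5 spans -1.32 to 1.25.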

Other observations

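GJA3, which encodes connexin 46 and is best known from the lens, had more counts than any of the 3 cardiac connexins among the members. It stood at 248.2, 203.1 and 212.4 CPM in RPMI plus B27 and at 145.8, 182.3 and 164.7 CPM in DMEM plus fatty acids, where GJA1 had 28.3 to 91.5 CPM. Per kilobase of annotated exon GJA3 was at 42.5 ± 4.58 and 31.5 ± 3.50 CPM per kb (SD, n = 3 each) and GJA1 at 31.8 ± 10.3 and 17.0 ± 9.32. They were close in replicate 1 of RPMI plus B27 (47.6 for GJA3 and 43.7 for GJA1) and of DMEM plus fatty acids (28.0 and 26.8), and in the latter the order turned with the length of the representative transcript in place of all exons. GJA3 shared 0 of 5162 stretches of 50 bases with another annotated gene. Libraries of the 2 media did not overlap for GJA3, as for 25.6% of all tested genes (12.8% lower in DMEM plus fatty acids). Its log2 fold change of -0.43 ± 0.14 did not pass (adjusted p 0.172 without and 0.144 with the replicate block, edgeR). The other connexins and pannexins, GJA3 among them, gave 0 calls of 7 tested in either fit, with 3 at an unadjusted p under 0.05 (edgeR), 2 higher, 5 lower and a median of -0.43. Over all tested genes 1.36% were called without and 4.78% with the block, and 17.7% had an unadjusted p under 0.05 without it. PANX1, the pannexin 1 gene, was at 42.0 ± 3.01 and 31.6 ± 3.92 CPM (-0.41 ± 0.14, adjusted p 0.191), and GJB2 was at 8.23 ± 1.61 and 5.80 ± 2.35 CPM (-0.50 ± 0.32, adjusted p 0.460).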
